A study of Mus musculus with 14 samples.

Results

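Bulge cells of the mouse hair follicle were taken from 2 single-cell libraries of back skin epithelium by their transcripts. A barcode was kept with 1000 or more unique molecular identifiers (UMIs, counts of single captured transcripts), at least 500 genes and no more than 10% of UMIs from mitochondrial genes. A kept cell counted as a bulge cell when it held 1 or more UMIs of at least 2 of the 6 genes Cd34, Postn, Krt24, Grem1, Aspn and Angptl7, and 0 UMIs of Ly6a and of Krt79. This rule took 424 of 8396 kept cells, 149 of 4351 in the aged library and 275 of 4045 in the young library.

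The study profiled female mice at 24 months (aged) and at 2 months (young) of age, with no treatment or genetic change in the labels, which give the strain under 2 different names. The 10x libraries, 1 per age, came from lineage-negative, integrin α6-positive cells, a sort that takes in follicle and epidermal keratinocytes. Bulk RNA was sequenced from aged and young hair follicle stem cells (HFSC; lineage-negative, integrin α6-high, CD34-positive, Sca1-negative) and from aged and young epidermal stem cells (EpdSC; lineage-negative, integrin α6-high, CD34-negative, Sca1-positive), with 2 libraries in each of the 4 groups. ATAC-seq, which counts transposase cuts and so measures open chromatin, had 1 library in each of the same 4 groups. The number of animals behind a library is not given, nor whether the 2 libraries of a group stem from different mice. The p-values therefore cover only the variation among these libraries, and this variation may be technical.

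The bulge is the part of the follicle below the sebaceous gland where slow-cycling stem cells rest between rounds of hair growth. In the mouse its outer layer carries CD34 on the surface, and the transcription factors SOX9, LHX2, TBX1 and NFATC1 are known for keeping these cells in place and at rest. BMP signals from the surroundings hold them quiet and WNT signals start hair growth, so inhibitors of both pathways, such as those encoded by Grem1, Fst, Sfrp1, Wif1 and Dkk3, are characteristic of the niche. Postn and Aspn encode matrix proteins, Krt24 a keratin, and Angptl7 a secreted angiopoietin-like factor. Ly6a encodes Sca-1, found on epidermal and upper follicle cells, and Krt79 marks the duct and upper follicle.

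The aged 10x library had a median of 2302 UMIs per kept cell and the young library 3918, beside 4000 captured cells per sample in the labels. Bulge cells were shallower than the other kept cells of their own library, with medians of 1452 against 2337.5 UMIs in the aged library and 2417 against 4038 UMIs in the young library. Their median mitochondrial share was 5.94% against 4.70% in the aged library and 5.54% against 3.87% in the young library. The libraries shared 33 barcodes among kept cells and 1 among bulge cells. Bulk RNA libraries held 25126808 to 35905505 counts. The ATAC-seq library of aged HFSC held 8243922 counts and the other 3 libraries 22934060 to 37325365. With 1 library per age, 10x and ATAC-seq values carry no test, and their 95% intervals cover counting error only.

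Bulge cells made up 3.42% of the kept cells in the aged library (exact binomial interval 2.90% to 4.01%) and 6.8% in the young library (6.04% to 7.62%). After each cell was thinned to 1000 UMIs the rule took 2.55% of aged cells (2.10% to 3.06%) and 5.44% of young cells (4.76% to 6.18%). The intervals of the 2 libraries did not overlap in either form. With a minimum of 500 UMIs and 250 genes, a setting chosen after the low depth of these cells was seen, the shares were 4.04% in the aged library and 6.76% in the young library. With at most 5% mitochondrial UMIs they were 1.46%, 37 of 2539 cells, in the aged library and 3.34%, 105 of 3146 cells, in the young library. Cell recovery, sorting and age cannot be told apart with 1 library per age.

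Most bulge cells passed the rule with 2 or 3 markers. In the aged library 75 cells held 2 of the 6 markers, 47 held 3, 22 held 4 and 5 held 5. In the young library 88 cells held 2, 104 held 3, 69 held 4, 13 held 5 and 1 held all 6. Postn was the most frequent marker, in 85.9% of aged and 96.0% of young bulge cells, and Aspn and Angptl7 were found in 14.5% to 20.1%. Cd34 was found in 42.3% of aged bulge cells (34.2% to 50.6%) and 65.5% of young ones (59.5% to 71.1%), and Grem1 in 43.6% and 64.4%. Krt24 ran the other way, in 59.1% of aged and 45.1% of young bulge cells. These shares chose the cells and describe them. Most aged cells therefore entered without a Cd34 UMI, at the lower depth given above. With each of these cells thinned to the same number of UMIs, Cd34 was found in 28.2% of aged and 43.6% of young ones. The Cd34 share thus stayed lower in aged bulge cells at equal depth.

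Postn needs care as a marker, since it was also found in 6.35% of other aged cells and 24.1% of other young cells. In cells with 10 or more UMIs of Krt1, a keratin of differentiating epidermis, Postn was found in 1.38% of aged cells (median 3486.5 UMIs) and 11.4% of young cells (median 5994.5 UMIs). Barcodes with 50 or fewer UMIs, which hold mostly free RNA, had a Postn level of 182 in the aged library and 331 in the young library, as UMIs of the gene per 1000000 UMIs of the same barcodes (UMI CPM). Bulge cells had 1647 UMI CPM of Postn in the aged library and 1822 in the young library. Cd34 was in 0.395% of aged and 0.852% of young Krt1 cells, so the other rule genes had a lower background than Postn.

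Markers that the rule did not use describe the same cells as bulge. Lhx2 (chr2:38339271-38369737) was found in 34.2% of aged bulge cells against 2.83% of other cells, and in 51.3% of young bulge cells against 4.51% of other cells. Sox9 was found in 54.4% against 9.42% of aged cells and in 61.8% against 19.9% of young cells. Cd200, a surface protein of the bulge, was in 47.0% against 9.78% of aged cells and 56.0% against 14.1% of young cells. Krt15, a keratin of resting basal cells, was in nearly all cells. It stood at 18303 UMI CPM in bulge cells against 8619 in other cells of the aged library, and at 13542 against 8493 in the young library. Young bulge cells without a Cd34 UMI had 7509 UMI CPM of Krt15, below the other young cells, and aged ones had 15348. Mki67, a gene of dividing cells, was found in 2 bulge cells of each library, 1.34% of aged and 0.727% of young bulge cells, against 4.62% of other aged and 5.76% of other young cells. With each cell thinned to 1000 UMIs it was in 1.34% of aged bulge cells against 1.55% of other aged cells, and in 0 of 275 young bulge cells, which allows a share of up to 1.09%, against 1.70% of other young cells. Cells grouped by a rule on transcripts had to differ from the rest, so these contrasts are a description and carry no test.

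Markers of cells outside the epithelium gave few UMIs. Of 8 fibroblast genes 1 was detected in aged bulge cells, with 3 UMIs in all, and 3 were detected in young bulge cells, with 15 UMIs, and Col3a1, Lum, Pdgfra, Dpt and Mfap5 were at 0 in both libraries. These sums were above those of other cells, at 12.7 UMI CPM in bulge cells against 5.91 in other cells of the aged library, and 20.7 against 1.16 in the young library. Endothelial genes summed to 8.45 UMI CPM in bulge cells against 13.6 in other cells of the aged library, and 19.3 against 15.9 in the young library, from 1 of 4 genes in bulge cells. Langerhans and myeloid genes were lower in bulge cells, at 8.45 against 25.5 UMI CPM in the aged library and 24.9 against 65.4 in the young library. The part of these cells in the bulge values was not tested. T cell genes had 1 UMI in aged and 0 UMIs in young bulge cells. Suprabasal genes, which are abundant elsewhere in the skin, summed to 1622 UMI CPM in aged bulge cells against 7624 in other aged cells. In the young library they summed to 1699 against 6599. A UMI of this list was in 81.9% of aged and 87.3% of young bulge cells, against 79.3% and 87.7% of other cells. Sbsn of this list went the other way in the aged library, at 583 UMI CPM in bulge cells against 311 in other cells. In bulk RNA every HFSC library exceeded every EpdSC library for Sbsn. Upper follicle genes summed to 3345 in bulge cells against 1941 in other cells of the aged library and 3455 against 5530 in the young library. Krt17, a keratin also found in the bulge, held 695 of the 792 upper follicle UMIs in aged and 2198 of the 2501 in young bulge cells. Genes of the inner bulge and companion layer (Krt6a, Krt6b and Krt75) were in 20.1% of aged bulge cells against 6.64% of other aged cells. In the young library they were in 27.3% against 1.54%. They summed to 182 against 60.7 UMI CPM in the aged library and 181 against 8.64 in the young library, so some members carried inner bulge transcripts.

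**Figure D1:**
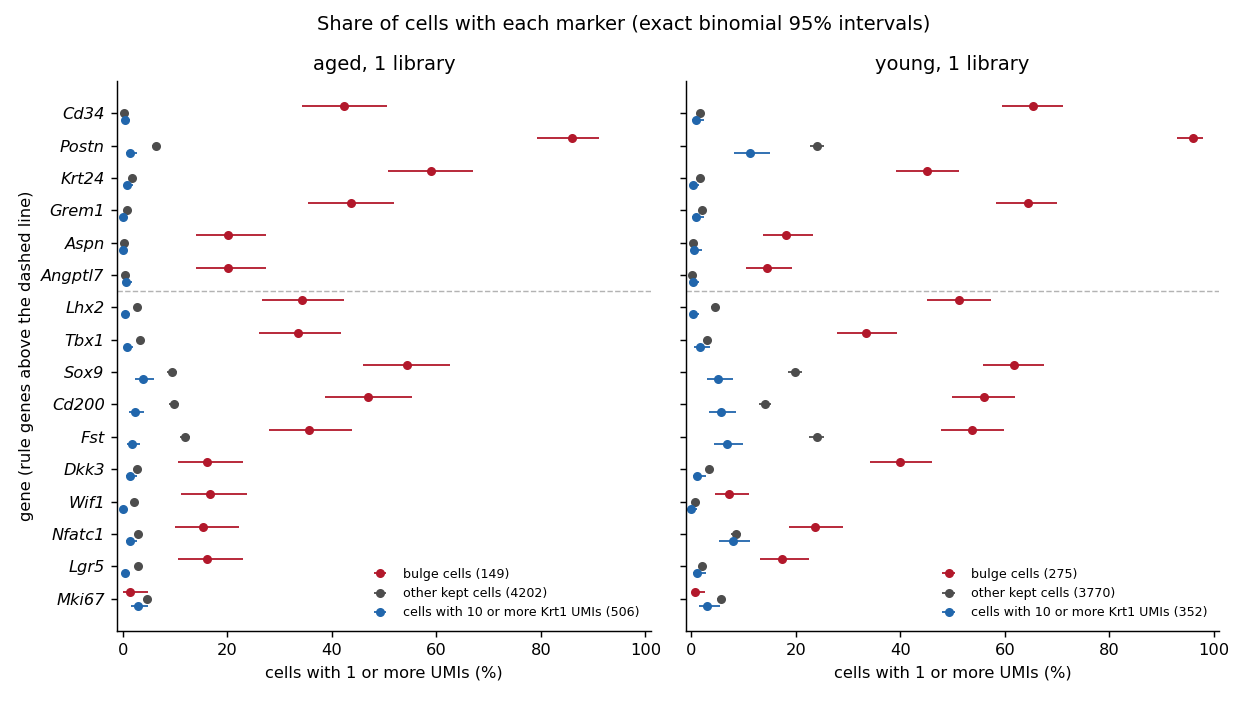
Share of cells with 1 or more UMIs of each gene (x axis, percent) in the aged library (left) and the young library (right), for bulge cells (red), other kept cells (grey) and cells with 10 or more Krt1 UMIs (blue), with exact binomial 95% intervals. Below the dashed line, genes that the rule did not use, such as Lhx2 at 34.2% of aged and 51.3% of young bulge cells, lie to the right of the other cells except for Mki67.

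Cells with 1 marker, just outside the rule, had lower levels of Lhx2 and Sox9 than cells with 2. Lhx2 stood at 333 UMI CPM in aged cells with exactly 2 markers and at 86.4 in the 191 aged cells with 1 marker and neither Ly6a nor Krt79, which lay just outside. In the young library it stood at 214 in cells with 2 markers and at 47.4 in the 306 cells with 1 marker. Sox9 stood at 579 inside and 191 outside in the aged library, and at 444 inside and 148 outside in the young library. Cells with 2 or more markers that were left out for a Ly6a or Krt79 UMI numbered 25 aged and 73 young. Their Lhx2 levels were 96.3 UMI CPM in the aged library and 218 in the young library. For Lhx2 the young ones thus did not lie below the young cells with exactly 2 markers. For Sox9 they did, at 318 against 444, and for Cd200 at 180 against 349. Sox9 stood at 261 in the aged cells left out.

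Bulge cells were split by whether they held a Cd34 UMI. Aged bulge cells comprised 86 without and 63 with a Cd34 UMI, with median depths of 1367.5 and 1460 UMIs, and young bulge cells 95 without and 180 with, with medians of 2424 and 2409.5 UMIs. Of 2438 genes outside the rule with 50 or more UMIs in bulge cells, 15 were past 2-fold higher and 15 past 2-fold lower in cells without Cd34 in both libraries. Krt17, a keratin of the follicle, stood at 4355 UMI CPM in aged cells without Cd34 and 1215 in those with it, and at 5979 and 1379 in young cells without and with it. Fst, which encodes the activin and BMP inhibitor follistatin, stood at 740 without and 346 with Cd34 in the aged library, and at 966 without and 380 with Cd34 in the young library. Both genes were thus higher in cells without Cd34 in each library.

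Pthlh, which encodes a parathyroid hormone-like peptide, had 12 UMIs in aged cells without Cd34 and 3 in those with it, and 84 and 20 UMIs in young cells without and with it. Krtdap and Krt1, genes of differentiating keratinocytes, and Lgr6, a receptor of upper follicle and epidermal stem cells, were also higher without Cd34. Krtdap stood at 732 UMI CPM without and 131 with Cd34 in the aged library, and at 1377 without and 173 with Cd34 in the young library. Genes lower in cells without Cd34 included Kcnk2, a potassium channel, Col12a1, a collagen, Cck, the cholecystokinin hormone, and Plxna2, a semaphorin receptor. Kcnk2 stood at 61.7 without and 140 with Cd34 in the aged library, and at 76.7 without and 294 with Cd34 in the young library. Sox9 did not follow Cd34. It stood at 570 without and 589 with Cd34 in the aged library, and at 464 and 468 in the young library. Krt15 was lower without Cd34, at 15348 without and 21885 with Cd34 in the aged library, and 7509 and 16938 in the young library. Id2 was lower too, at 308 and 542 in the aged and 153 and 501 in the young library. Cd200 was higher without Cd34, at 555 and 383 in the aged and 468 and 326 in the young library. Cldn8 and Vsnl1 were also higher without Cd34, on 3 to 37 UMIs in a class. Smoc2 was higher too, with 11 UMIs without and 2 with Cd34 in the aged library, and 45 and 10 in the young library.

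S100a4, a calcium-binding protein gene, and Sfrp1, a WNT inhibitor, followed Cd34 more closely in the young library. S100a4 stood at 1020 without and 3802 with Cd34 in young cells, and at 771 without and 1019 with Cd34 in aged cells. Sfrp1 stood at 176 without and 624 with Cd34 in young cells, and at 455 without and 654 with Cd34 in aged cells. The difference between the libraries in this split was not tested. Several genes in this comparison rest on fewer than 10 UMIs in a class, and a cell without a Cd34 UMI at these depths may still express Cd34.

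**Figure D2:**
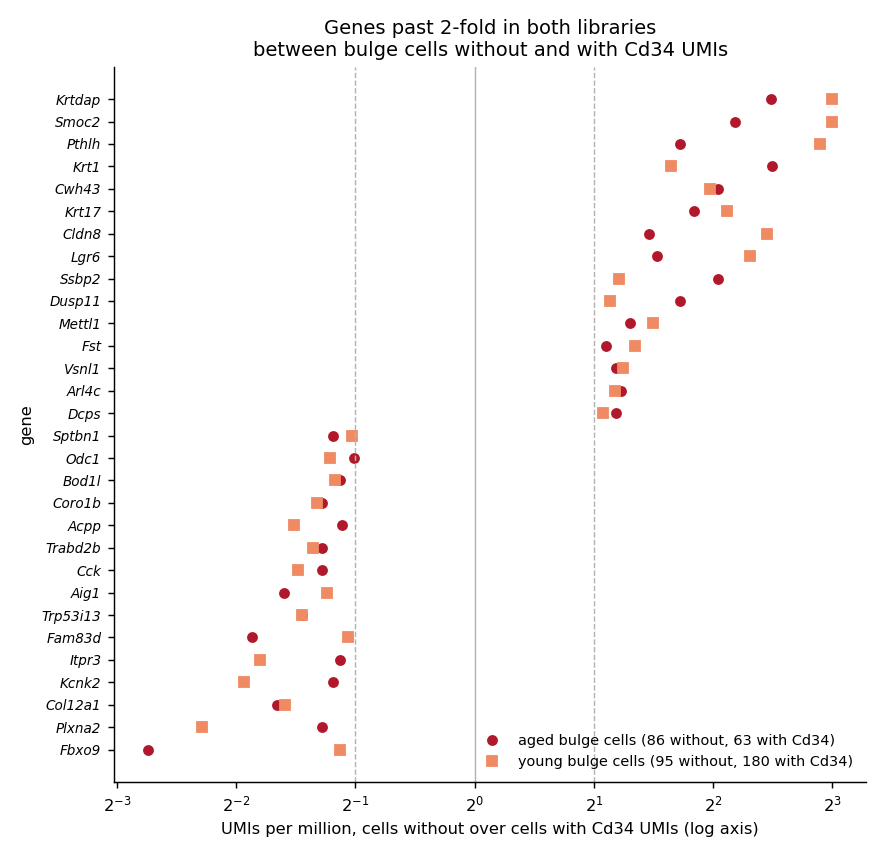
Ratio of UMI CPM in bulge cells without over with Cd34 UMIs (x axis, log scale) for the 30 genes past 2-fold the same way in both libraries, aged as red circles and young as orange squares. Krt17, Fst, Krtdap and Pthlh lie on the right, higher without Cd34, and Kcnk2, Plxna2 and Cck on the left.

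Beyond the rule genes, the bulge cells carried a large shared programme. Of 2444 genes with 50 or more UMIs in bulge cells, 99 (4.05%) were 4-fold or more above the other kept cells in both libraries, of which 93 were not in the rule. The 20 with the largest smaller ratio lay 15.99- to 50.3-fold above the other cells in the library where they differed less. Leading genes were thus chosen by this contrast, and the lowest of them, Palld, was 4.01-fold above in the aged and 4.56-fold above in the young library. The values below are their levels in libraries that the choice did not use.

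Sorted HFSC had the same genes at high levels. Wfdc3, a gene of the whey acidic protein family, had 435 UMI CPM in bulge cells against 6.37 in other cells of the aged library, and 293 against 5.82 in the young library. In bulk RNA it had 68.2 and 120 CPM (read counts per 1000000, scaled by TMM) in aged HFSC against 0.247 and 0.456 CPM in aged EpdSC, and 73.5 and 91.1 CPM in young HFSC against 0 and 0.757 CPM in young EpdSC. Shisa2, an inhibitor of WNT and FGF receptor maturation in frog embryos, had 390 and 464 CPM in aged HFSC against 0.526 and 0.716 CPM in aged EpdSC, and 404 and 327 CPM in young HFSC against 0.294 and 0.691 CPM in young EpdSC. No HFSC library overlapped an EpdSC library for either gene.

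Il31ra, the receptor chain for the itch cytokine interleukin-31, had 681 and 356 CPM in aged HFSC against 0.0309 and 0.326 CPM in aged EpdSC, and 1182 and 825 CPM in young HFSC against 0.324 and 0.757 CPM in young EpdSC. It had log2 folds of 11.50 ± 0.59 at 24 months (SE, adjusted p = 1.2e-07) and 10.87 ± 0.55 at 2 months (adjusted p = 7.8e-08). The Il31ra folds, set against EpdSC levels near 0, ran from 10.58 to 13.81 at 24 months and from 10.36 to 11.56 at 2 months when 1 library was left out. These and all adjusted p-values of single genes are Benjamini-Hochberg adjusted over 21464 genes in edgeR's quasi-likelihood test. Il31ra also showed how shallow the single cells were, with 11 UMIs in aged and 49 UMIs in young bulge cells. Tgm5, a transglutaminase, was also abundant, at 791 and 1049.5 CPM in aged HFSC against 4.33 and 8.66 CPM in aged EpdSC, and at 923 and 1037 CPM in young HFSC against 3.12 and 7.5 CPM in young EpdSC.

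Of the 93 leading genes outside the rule, 91 were called higher in HFSC than in EpdSC at 24 months, against 11.9% of all 21464 genes, and 92 at 2 months, against 13.1%. All 93 had a positive fold at both ages, with median log2 folds of 3.78 at 24 months and 4.13 at 2 months, against 0.09 and 0.06 over all genes. Both HFSC libraries exceeded both EpdSC libraries for 92 genes at each age, against 33.8% of all genes at 24 months and 32.6% at 2 months. The exceptions to the calls were Tgfb2, a growth factor gene, at both ages, and Hk2, a hexokinase gene, at 24 months only, where its log2 fold was 1.41 (adjusted p = 0.0621). Tgfb2 had log2 folds of 0.11 at 24 months (adjusted p = 0.867) and 0.59 at 2 months (adjusted p = 0.250). The sorted HFSC were chosen by CD34 and Sca1, so Cd34 and Ly6a are no finding there. The 93 genes themselves took no part in that sort. The rule on single cells also used Cd34 and Ly6a, so the selections are related and the match between them is no independent test. In bulk samples fewer cells of a type and less RNA per cell cannot be told apart.

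**Figure D3:**
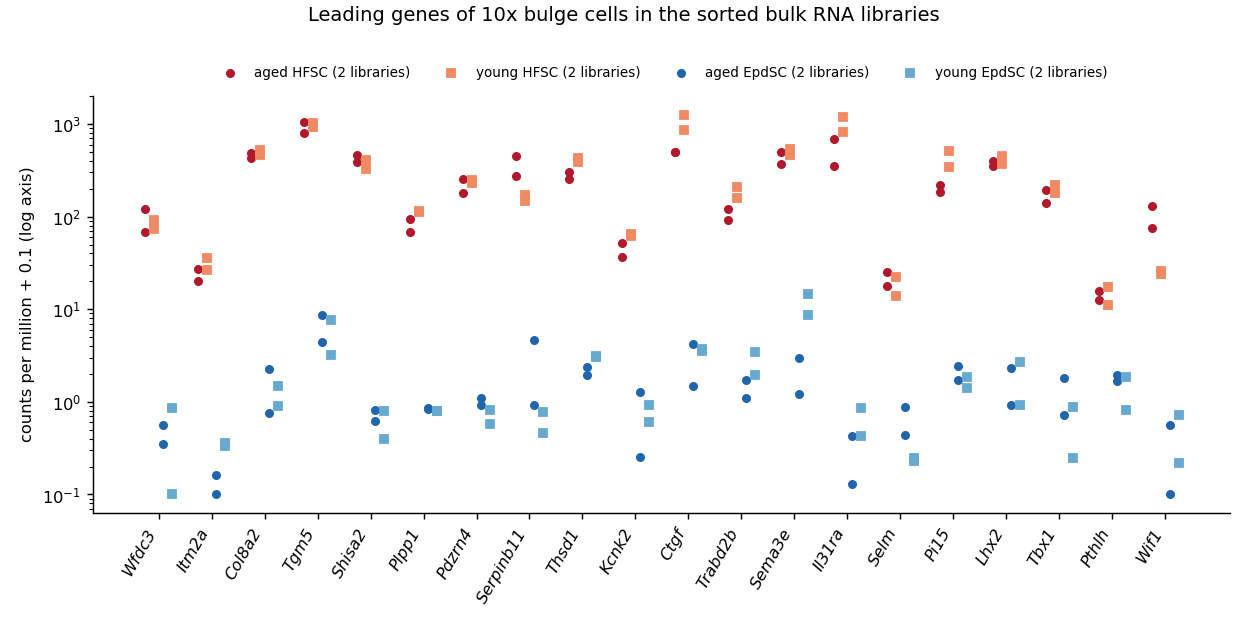
CPM plus 0.1 (log axis) of the 20 named leading genes in each bulk RNA library of aged HFSC, young HFSC, aged EpdSC and young EpdSC, 2 libraries each. For each gene all 4 HFSC points lie above all 4 EpdSC points.

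The rule genes themselves were measured in the same sorted libraries. Postn had 9827 and 10036 CPM in aged HFSC against 151 and 252 CPM in aged EpdSC, and 8757 and 10022 CPM in young HFSC against 304 and 295 CPM in young EpdSC. Grem1 had 867 and 815 CPM in aged HFSC against 1.14 and 1.37 CPM in aged EpdSC, and 948 and 832 CPM in young HFSC against 1.12 and 1.18 CPM in young EpdSC. Krt24, Aspn and Angptl7 were also called higher in HFSC at both ages, with log2 folds between 6.88 and 8.59. Cd34, on which the cells were sorted, had 1088 and 1194 CPM in aged HFSC against 1807 and 1715 CPM in young HFSC, and at most 1.81 CPM in any EpdSC library. Krt79 had 62.2 and 79.0 CPM in aged HFSC, against 14.3 and 23.6 CPM in young HFSC, so RNA of a gene that the rule shut out was present in the sorted HFSC.

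The promoters of leading genes were more open in HFSC. A promoter was given by the ATAC-seq count of 1 window of 500 bases at the annotated start site, and HFSC over EpdSC ratios were set against the median of 12661 promoters with 20 or more counts in each pair, which was 0.491 at 24 months and 0.984 at 2 months. Of 63 leading genes with enough counts, 20 were past 2-fold over that median at both ages, against 2.90% of all promoters. Above the median at both ages were 54 of the 63, against 36.9% of all promoters. The median over the 63 was 1.85 at 24 months and 1.63 at 2 months. Promoters of 4 genes are shown as the named leading genes with the largest smaller ATAC-seq ratio. They are given with 250 bases before and 50 after the annotated start, from RefSeq on GRCm38.p6, 5′ to 3′ on the gene's strand. Capitals mark TAATTA, a core of LIM homeodomain factors such as LHX2, ACAATG, a core of SOX factors, and TGGAAA, a core of NFAT factors, on either strand.
Tbx1: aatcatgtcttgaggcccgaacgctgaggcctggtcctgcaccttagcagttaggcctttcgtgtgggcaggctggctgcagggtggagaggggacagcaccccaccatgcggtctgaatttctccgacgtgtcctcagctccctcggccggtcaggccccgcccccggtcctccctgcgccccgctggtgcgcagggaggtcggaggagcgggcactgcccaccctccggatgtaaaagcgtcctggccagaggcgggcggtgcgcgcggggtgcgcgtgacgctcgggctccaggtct
Wfdc3: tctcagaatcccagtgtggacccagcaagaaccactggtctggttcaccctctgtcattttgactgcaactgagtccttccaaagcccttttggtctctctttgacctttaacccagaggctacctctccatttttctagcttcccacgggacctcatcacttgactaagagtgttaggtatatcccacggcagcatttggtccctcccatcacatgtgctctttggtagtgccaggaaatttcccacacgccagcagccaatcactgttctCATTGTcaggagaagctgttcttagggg
Shisa2: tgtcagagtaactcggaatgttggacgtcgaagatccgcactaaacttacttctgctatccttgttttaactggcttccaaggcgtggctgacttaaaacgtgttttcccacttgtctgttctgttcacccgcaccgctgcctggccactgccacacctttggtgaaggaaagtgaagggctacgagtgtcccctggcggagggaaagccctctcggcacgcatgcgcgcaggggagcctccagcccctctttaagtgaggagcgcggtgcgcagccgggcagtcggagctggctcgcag
Pdzrn4: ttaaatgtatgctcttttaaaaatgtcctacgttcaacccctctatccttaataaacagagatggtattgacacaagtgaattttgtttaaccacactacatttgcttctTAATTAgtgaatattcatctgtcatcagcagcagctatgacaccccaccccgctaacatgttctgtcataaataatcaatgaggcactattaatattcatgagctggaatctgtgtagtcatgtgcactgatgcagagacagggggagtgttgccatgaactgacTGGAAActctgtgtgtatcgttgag

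The Tbx1 promoter (chr16:18588850-18589149, minus strand) belongs to a T-box factor of the bulge. Its window had 35 counts in aged HFSC against 7 in aged EpdSC, and 178 in young HFSC against 8 in young EpdSC, ratios of 28.3 and 32.2 over the median. Tbx1 RNA had 196 and 140 CPM in aged HFSC against 0.618 and 1.69 CPM in aged EpdSC, and 180 and 221 CPM in young HFSC against 0.147 and 0.790 CPM in young EpdSC. The Wfdc3 window (promoter at chr2:164743218-164743517, minus strand) had 16 counts in aged HFSC against 5 in aged EpdSC, and 135 in young HFSC against 6 in young EpdSC. The Shisa2 window (promoter at chr14:59625031-59625330, plus strand) had 65 counts in aged HFSC against 18 in aged EpdSC, and 332 in young HFSC against 30 in young EpdSC. The Pdzrn4 window, at a ubiquitin ligase gene (promoter at chr15:92596859-92597158, plus strand), had 33 counts in aged HFSC against 23 in aged EpdSC, and 159 in young HFSC against 33 in young EpdSC. HFSC counts exceeded EpdSC counts in all 4 windows although the aged HFSC library was the smallest.

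Over the 67 leading genes with a promoter, none of the motifs searched was more frequent than in all promoters. TAATTA was found in 1 of 67 promoters of leading genes (1.49%) and in 5.33% of 27025 promoters, ACAATG in 8 (11.9%) and 12.6%, and TGGAAA in 10 (14.9%) and 21.3%. Among the 20 genes past 2-fold, ACAATG was in 3 (15%), TAATTA in 1 and TGGAAA in 4. Among the sequences above, the Wfdc3 promoter held ACAATG on the strand opposite to the gene, which reads CATTGT above, Pdzrn4 held TAATTA and TGGAAA, and neither Tbx1 nor Shisa2 held any of the 3 in this window. Lhx2 itself had 83 counts at its promoter in aged HFSC against 105 in aged EpdSC, and 460 in young HFSC against 157 in young EpdSC, which is 4.48-fold and 4.25-fold over the median.

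**Figure D4:**
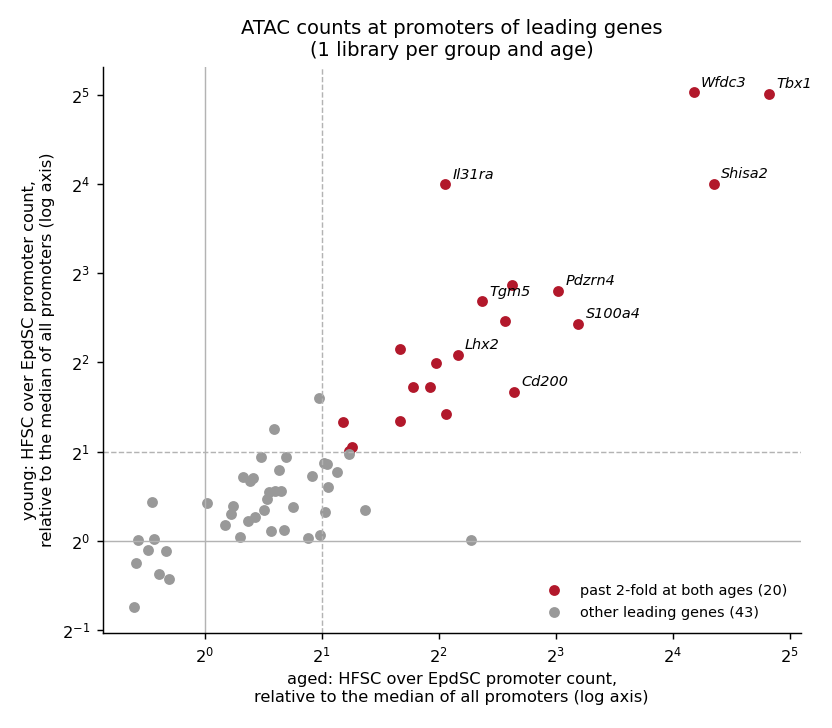
HFSC over EpdSC ratio of ATAC-seq promoter counts relative to the median of all promoters, at 24 months (x axis) and at 2 months (y axis), both on log scales, for 63 leading genes with enough counts. The 20 genes past the dashed 2-fold lines at both ages are red, and Tbx1, Wfdc3 and Shisa2 lie farthest out.

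Of 14 transcription factors of follicle stem cells 13 were called higher in HFSC at both ages, with median log2 folds of 2.69 at 24 months and 2.93 at 2 months, and the exception was Nfix, at -0.23 and -0.04. Of all genes, 11.9% were called higher at 24 months and 13.1% at 2 months. All 12 of these factors with 50 or more UMIs were above the other cells in bulge cells at both ages, against 1118 of 2444 genes. Lhx2 had 399 and 355 CPM in aged HFSC against 0.835 and 2.21 CPM in aged EpdSC, and 375 and 450 CPM in young HFSC against 0.824 and 2.60 CPM in young EpdSC. Sox9 had 258 and 287 CPM in aged HFSC against 7.70 and 13.2 CPM in aged EpdSC, and 277 and 243 CPM in young HFSC against 9.79 and 9.93 CPM in young EpdSC. Nfib, a nuclear factor I gene, was more widely expressed, at 1624 and 1467 CPM in aged HFSC against 469 and 431 CPM in aged EpdSC, and at 2037 and 2003 CPM in young HFSC against 509 and 484 CPM in young EpdSC.

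WNT genes were called in both directions. Of 19 measured, 10 were called higher and 7 lower in HFSC at each age, and 7 were leading genes of bulge cells, where 4.05% of 2444 genes were leading. Of all genes, 11.9% were called higher and 12.2% lower at 24 months, and 13.1% and 13.0% at 2 months. The WNT inhibitor Sfrp1 had 971 and 811 CPM in aged HFSC against 47.8 and 43.2 CPM in aged EpdSC, and 839 and 1152 CPM in young HFSC against 51.4 and 51.1 CPM in young EpdSC. The receptor gene Fzd2 had 329 and 386 CPM in aged HFSC against 7.82 and 11.0 CPM in aged EpdSC, and 316 and 304 CPM in young HFSC against 11.1 and 7.80 CPM in young EpdSC. Dkk3, of the Dickkopf family, had 629 and 506 CPM in aged HFSC against 15.8 and 14.0 CPM in aged EpdSC. Lgr5, an R-spondin receptor of cycling follicle stem cells, was in 16.1% of aged and 17.5% of young bulge cells, and was called higher in HFSC with log2 folds of 7.33 at 24 months and 7.95 at 2 months. Of 21 BMP and TGF-beta genes, 11 were called higher and 3 lower at 24 months, and 12 higher and 4 lower at 2 months. Of these, Bmp4, a BMP ligand gene, was lower, at log2 folds of -5.92 and -6.56.

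Growth factor, matrix and keratin genes were called in both directions. Of 15 niche growth factors 9 were called higher and 4 lower in HFSC at each age. Of 25 matrix and adhesion genes 12 were called higher and 4 lower at 24 months, and 10 higher and 4 lower at 2 months. Of 12 keratins 3 were called higher at each age, and 6 lower at 24 months and 5 at 2 months. These counts stand beside 11.9% of all genes called higher and 12.2% called lower at 24 months, and 13.1% and 13.0% at 2 months. Krt14, the keratin of basal epidermis, had 4836 UMI CPM in bulge cells against 15273 in other cells of the aged library, and 4358 against 10051 in the young library.

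Immediate early, antigen presentation and cell cycle genes were mostly on the epidermal side in bulk RNA. Of 16 immediate early genes, which respond within minutes to stimuli such as cell isolation, 15 were called lower in HFSC at 24 months and 14 at 2 months, and Ier3 was called higher at both. Fos had 54.9 UMI CPM in bulge cells against 360 in other cells of the aged library, and 130 against 730 in the young library. Of 13 genes of MHC class I and antigen presentation 8 were called lower in HFSC at 24 months and 10 at 2 months. All 13 had a negative fold at both ages. Of 17956 genes listed in 10x and tested in bulk, 9590 had a positive fold at 24 months and 9201 at 2 months. Cell cycle genes were called lower for 8 of 15 at 24 months and 7 at 2 months, and higher for 1 and 2. Percentages of all genes called lower were 12.2% at 24 months and 13.0% at 2 months, and called higher 11.9% and 13.1%. Of 3 cell cycle genes with 50 or more UMIs, 2 were above the other cells in bulge cells at both ages, against 1118 of 2444 genes. In UMI CPM, Ccnd1 stood at 88.7 against 60.8 in the aged library and 117 against 73.6 in the young library. Cdkn1b was above too, and Ccnd2 was below, at 165 against 443 and 302 against 603.

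No leading gene passed the age test in sorted HFSC. In edgeR's test of aged against young HFSC, 0 of the 93 leading genes were called higher, against 0.294% of all genes, and 0 were called lower, against 0.0745%. At an unadjusted p under 0.05 there were 13, and DESeq2 called 1 higher and 3 lower. The median log2 fold of the 93 was -0.09 against 0.016 over all genes, and 61 of 93 were negative. In 10x bulge cells the median aged over young ratio of the same genes was 0.898, and 53 of 93 were below 1. A p that missed the threshold does not show that the genes were alike, and 2 libraries per age leave small changes undetected.

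Wif1, a secreted WNT inhibitor (chr10:121034004-121100642), and Pi15 had the smallest p-values with age among the 20 named leading genes. Wif1 had 43 UMIs in 149 aged bulge cells and 38 UMIs in 275 young ones, 182 and 52.5 UMI CPM, a ratio of 3.46 (2.18 to 5.5). In bulk it had 75.4 and 130.5 CPM in aged HFSC against 26.1 and 23.8 CPM in young HFSC, a log2 fold of 2.05 ± 0.43 (SE), and the groups did not overlap. Its adjusted p of 0.0888 missed the threshold in edgeR's test, and passed it without the first aged HFSC library or without any 1 of the 4 EpdSC libraries. Pi15, a gene of a secreted protease inhibitor family, had 186 and 222 CPM in aged HFSC against 342 and 517 CPM in young HFSC, a log2 fold of -1.08 (adjusted p = 0.0661). Cells with Wif1 were 16.8% of aged and 7.27% of young bulge cells. Wif1 was also higher in the other kept cells of the aged library, with 11.4 UMI CPM in the aged and 2.14 in the young library.

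Across all genes, 48 of 2444 (1.96%) were past 2-fold higher and 86 (3.52%) past 2-fold lower in aged than in young bulge cells, with a median ratio of 0.979. Of these, 23 higher and 15 lower genes had an interval that stayed past 1.5-fold. Jag1, a Notch ligand, had the largest ratio of the 10 named higher genes, with 41 UMIs in aged and 31 UMIs in young bulge cells, or 173 and 42.8 UMI CPM, a ratio of 4.04 (2.48 to 6.67). In other cells it stood at 44.4 UMI CPM in the aged and 38.2 in the young library. In sorted HFSC Jag1 was not higher with age, with 393 and 423 CPM in aged against 444 and 476 CPM in young HFSC, a log2 fold of -0.17 (adjusted p = 0.921). Thbs1, the matrix protein thrombospondin, had 55 UMIs in aged and 48 UMIs in young bulge cells, a ratio of 3.50, and 1058 and 1446 CPM in aged HFSC against 743 and 605 CPM in young HFSC. Its log2 fold of 0.89 had an adjusted p of 0.331 in edgeR, while DESeq2, the fit with no filter on low counts and the fits without either young EpdSC library called it higher.

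Some of the higher genes were higher in the other cells of the aged library too. Tsc22d3, a glucocorticoid-induced gene, stood at 283 in aged and 76.0 in young bulge cells, and at 170 in aged and 62.1 in young other cells. Sgk1, a kinase gene also induced by glucocorticoids, stood at 338 in aged and 123 in young bulge cells, and at 161 in aged and 67.8 in young other cells. In bulk, Tsc22d3 had 85.0 and 103 CPM in aged HFSC and 91.4 and 539 CPM in young HFSC, where 1 young library stood apart. Of the 48 higher genes 40 had a ratio above 1 in other cells, against 1162 of the 2444, and 7 were past 2-fold there, against 17 of the 2444. Whether these values reflect the library or the cells was not tested.

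Genes lower in aged bulge cells included S100a4, Cck and Igfbp3. S100a4 had 209 UMIs in aged and 2027 UMIs in young bulge cells, 883 and 2800 UMI CPM, a ratio of 0.32 (0.27 to 0.36). It stood at 57.9 in aged and 69.6 in young other cells. In bulk it had 30.4 and 33.4 CPM in aged HFSC and 34.6 and 35.05 CPM in young HFSC, a log2 fold of -0.13 (adjusted p = 0.996). Cck had 6 UMIs in aged and 131 UMIs in young bulge cells, a ratio of 0.14 (0.05 to 0.31), but 19.8 and 44.6 CPM in aged HFSC and 19.2 and 24.0 CPM in young HFSC. Igfbp3, which encodes an insulin-like growth factor binding protein, had 2 UMIs in aged and 121 UMIs in young bulge cells, a ratio of 0.05 (0.01 to 0.19), and its bulk levels were 115 and 123 CPM in aged HFSC and 154 and 467 CPM in young HFSC. In other cells Igfbp3 was higher in the aged library, at 171 against 143 UMI CPM. S100a4 and Cck were lower in cells without Cd34, which made up a larger share of aged bulge cells. Among cells with Cd34, S100a4 stood at 1019 UMI CPM in aged and 3802 in young cells, and Cck at 37.4 and 235. Among cells without Cd34, S100a4 stood at 771 in aged and 1020 in young cells, and Cck at 15.4 and 84.4. The part of the Cd34 share in the ratios was not tested.

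Single cells and sorted libraries matched for some age differences and parted for others. Of 47 higher genes measured in bulk 32 had a positive log2 fold, with a median of 0.06, and 3 were called higher and 0 lower. Of 86 lower genes 33 had a positive fold, with a median of -0.08, and 0 were called higher and 1 lower. Over the 2425 genes with 50 or more UMIs in bulge cells that were measured in bulk, 1392 were positive and the median was 0.04. The 9 genes of this set called higher in aged HFSC were Ly6e, Ly6d, Clca3a2, Junb, B2m, Pam, Cpe, Psmb8 and Hes1, and 8 of them had a ratio above 1 in bulge cells. Clca3a2, a chloride channel accessory gene, was the exception at 0.65 (0.29 to 1.30), from 10 UMIs in aged and 47 UMIs in young bulge cells. The 1 gene called lower, Plxna2, had a ratio of 0.32. Junb belongs to the 16 immediate early genes, of which 14 had a positive age fold in bulk, with a median log2 fold of 0.63. In bulge cells the list ran the other way. Its 9 genes with 50 or more UMIs had a median aged over young ratio of 0.63, with 3 past 2-fold lower and 0 past 2-fold higher. The reason was not tested.

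Ly6e (chr15:74955025-74959904), an interferon-induced surface protein gene, had the smallest p of these. It had 62.5 and 91.9 CPM in aged HFSC against 9.35 and 8.81 CPM in young HFSC, a log2 fold of 3.09 ± 0.21 (SE, adjusted p = 0.000187). In bulge cells it had 35 UMIs in the aged and 42 UMIs in the young library, a ratio of 2.55 (1.58 to 4.09). B2m, the shared light chain of MHC class I, had 554 and 1135 CPM in aged HFSC against 282 and 307 CPM in young HFSC, a log2 fold of 1.52 ± 0.26 (adjusted p = 0.0363). In bulge cells B2m stood at 2509 UMI CPM in the aged and 1598 in the young library, a ratio of 1.57, and in other cells at 3181 in the aged and 3640.3 in the young library. Hes1, a Notch target, had 47.4 and 64.9 CPM in aged HFSC against 20.7 and 29.0 CPM in young HFSC, a log2 fold of 1.18 (adjusted p = 0.0459), and a ratio of 2.05 (1.36 to 3.07) in bulge cells. Plxna2 had 374 and 235 CPM in aged HFSC against 724 and 642 CPM in young HFSC, a log2 fold of -1.17 ± 0.20 (adjusted p = 0.0360).

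All 13 MHC class I genes and 13 of 16 interferon genes had a positive age fold in HFSC, and 3 and 5 of them were called higher. Of all 21464 genes 51.9% had a positive age fold and 0.294% were called higher. The interferon calls were Sp100, Gbp2, Casp1, Irf1 and Ly6e, and the MHC class I calls were B2m, Psmb8, a subunit of the immunoproteasome, and Nlrc5, the MHC class I transactivator. In bulge cells Casp1, the inflammatory caspase, had 14 UMIs in the aged and 11 UMIs in the young library. Sp100, Gbp2, Irf1 and Nlrc5 had 1 to 9 UMIs in either library, too few to read. Summed over the 16 interferon genes, bulge cells had 773 UMI CPM in the aged and 862 in the young library. The interferon sum was thus lower in aged bulge cells, unlike the bulk folds. The 13 MHC class I genes summed to 5297 in aged and 3745 in young bulge cells. In other cells both sums were lower in the aged library, at 1051 against 1541 and 6593.5 against 7888. Other lists gave Ltbp1, a TGF-beta binding protein, with 77.8 and 76.9 CPM in aged HFSC against 195 and 194 CPM in young HFSC (log2 fold -1.33, adjusted p = 0.0181), and Timp3, a protease inhibitor, with 69.2 and 107 CPM in aged HFSC against 24.0 and 19.98 CPM in young HFSC (log2 fold 2.00, adjusted p = 0.00706). Ltbp1 had 3 UMIs in aged and 33 UMIs in young bulge cells. Csf1, the macrophage growth factor, was called higher, and Hhip, an inhibitor of hedgehog signals, Itgb6, an integrin subunit, and the keratin gene Krt80 were called lower.

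Markers of some other cell types moved with these bulk calls, and those of others did not. Of 6 suprabasal genes 5 were higher in both aged than in both young HFSC libraries, with sums of 317 and 393 CPM in aged HFSC against 138 and 222 CPM in young HFSC and 1804 to 3135 CPM in EpdSC. Of 7 sebaceous genes 6 were higher, with sums of 474 and 625 CPM against 280 and 317 CPM. Of 6 upper follicle genes 4 were higher, with sums of 1080 and 1845 CPM in aged HFSC against 844 and 1079 CPM in young HFSC, and of 5 melanocyte genes 4 were higher, with sums of 29.2 and 32.3 CPM against 16.3 and 18.9 CPM. Of 7 Langerhans and myeloid genes 4 were higher, with sums of 6.57 and 9.35 CPM in aged HFSC against 2.63 and 5.98 CPM in young HFSC, and Lyz2 was at 0 in all 4. Of 5 pericyte and smooth muscle genes 3 were higher, of 8 fibroblast genes 3 were higher and 2 lower, and of 6 T cell genes 2 were higher. Endothelial, Schwann and red cell sets had 0 higher genes, and the Schwann and red cell sets had 1 lower gene each. Of all genes, 18.0% were higher in both aged than in both young HFSC libraries. Of the 9 genes called higher with age, 8 had a negative log2 fold for HFSC over EpdSC at 2 months, such as Ly6d at -5.86 and Clca3a2 at -6.08. The exception was Cpe at 0.35. Of the 2425 genes with 50 or more UMIs measured in bulk, 847 had a positive fold at 2 months, so most of these were negative too. The part of these cells in the age result was not tested. In 10x, Krt1 had 47 UMIs in bulge cells of either library, which is 199 UMI CPM in aged and 64.9 in young bulge cells, a ratio of 3.06 (2.00 to 4.68) and a bulk log2 fold of 2.74 (adjusted p = 0.0806 in edgeR, and called by DESeq2, with no filter on low counts and without either young EpdSC library). The Krt1 UMIs lay in 16 of 149 aged and 28 of 275 young bulge cells, and the interval covers counting error only. In cells with 3 or more markers Krt1 had 41 UMIs in 74 aged and 17 UMIs in 187 young cells. Cells with exactly 2 markers went the other way, with 6 UMIs in 75 aged and 30 UMIs in 88 young cells. The ratio over all bulge cells was 0.867 with at most 5% mitochondrial UMIs. Krt1 also stood at 1925 UMI CPM in other aged against 828 in other young cells, and at 1791 in aged against 830 in young droplets of at most 50 UMIs, and the part of free RNA in the ratio was not tested.

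The bulk age calls rested on few libraries. Without the second aged HFSC library, 8 of the 10 genes named above were no longer called, all but Ly6e and Ly6d. Without the first young HFSC library 7 were lost, without the second 4, and without the first aged one 2 and without the first aged EpdSC library 1, and no direction changed. All genes called higher with age numbered 63 with all 8 libraries and 10 to 137 when 1 was left out, and genes called lower 16 and 2 to 44. The 91 and 92 leading genes called between HFSC and EpdSC stayed at 90 to 92 in every such fit.

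**Figure D5:**
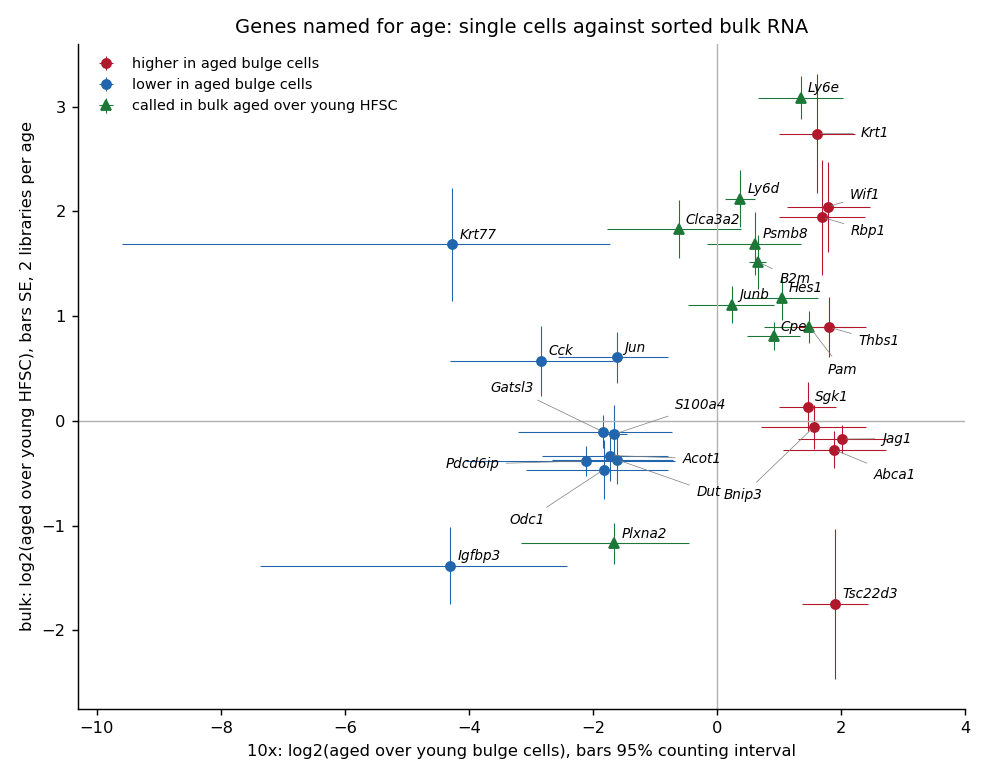
Log2 ratio of aged over young bulge cells in 10x (x axis, bars 95% counting interval) against the log2 fold of aged over young sorted HFSC in bulk RNA (y axis, bars SE, 2 libraries per age) for the named genes. Ly6e, Wif1, Pam and Hes1 lie in the upper right, while Jag1 and S100a4 lie near 0 on the y axis.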

How the data were processed

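Bulk RNA (8 libraries), ATAC-seq (4 libraries) and 10x (2 libraries) were analysed. The authors deposited read counts per gene, read counts per genome window and UMI counts per barcode, with no normalization. Per the submitters' processing notes the tools included STAR, Bowtie and Cell Ranger and the build was mm10. Versions and further steps: not given in the sources used here. Groups came from the labels. Bulk counts entered 1 edgeR 4.0.16 quasi-likelihood fit (R 4.3.3) of all 8 libraries with TMM scaling and Benjamini-Hochberg adjustment, and a call means an adjusted p under 0.05. CPM are TMM-scaled. Cells were processed with Python 3.11.15, numpy 2.4.6, pandas 2.3.3 and scipy 1.17.1. Intervals are 95%, exact Poisson, Clopper-Pearson binomial or conditional binomial for ratios. No doublet caller was run. ATAC-seq depth was summed over non-overlapping windows without the mitochondrial chromosome. The bulk fit was tested on simulated counts, for the comparison of aged with young HFSC.

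Members, lists and tests were chosen with earlier results of these data known. The text names the rule genes, the 20 leading genes with the largest smaller ratio, the 10 largest age ratios in each direction whose interval stays past 1.5-fold, bulk age calls with 50 or more UMIs, and of each list the bulk age calls or else up to 4 abundant members. Genes of the Cd34 comparison and Palld, Tgfb2, Hk2, Krt14, Fos, Ier3, Bmp4 and Lgr5 were chosen after their values were seen. Alternatives were other marker counts, filters, thinning, DESeq2 1.42.0, other scaling, a replicate block and leaving out each library.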

Additional observations from a re-analysis of the deposited data

Results flagged for a closer look

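The age effect on Ly6e differed between the sorted populations. Its aged over young log2 fold was 2.70 higher in HFSC than in EpdSC (SE 0.27, interaction term of edgeR's fit, adjusted p = 0.0144). Ly6e had 62.5 and 91.9 CPM in aged HFSC against 9.35 and 8.81 CPM in young HFSC, and 122 and 116 CPM in aged EpdSC against 100 and 81.3 CPM in young EpdSC.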

How the results depend on the processing

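All alternative values of the named genes between HFSC and EpdSC kept their direction and side of the threshold, 350 of 350 at each age. The share of bulge cells in the aged and young libraries was 1.70% and 4.62% with 3 markers, 2.55% and 5.44% after thinning, 1.46% and 3.34% with at most 5% mitochondrial UMIs, 4.04% in the aged library with 500 UMIs, and 8.60% in the young library with Ly6a and Krt79 allowed. Leading genes numbered 48 with at most 5% mitochondrial UMIs and 213 at 2-fold. Genes higher with age in bulge cells numbered 23 with at most 5% mitochondrial UMIs and 18 with 100 UMIs, and lower ones 28 with 100 UMIs. Genes called higher in aged HFSC numbered 272 with DESeq2, 470 with no filter, 123 with the replicate block and 7 with the 4 HFSC libraries only, and 10 to 137 with 1 library left out. Genes called lower numbered 93, 192, 37 and 2, 9 with a 1 CPM filter, and 2 to 44 with 1 library left out. Leading genes called higher with age numbered 1 with DESeq2, 3 with no filter and 2 with the block, and those called lower 3, 4 and 2; both were 0 to 2 with 1 library left out. Same-numbered HFSC libraries deviated with a correlation of 0.157, and the numbers are not said to pair samples; Wif1 and Krt1 were called under the block. With the 4 HFSC libraries only, Ly6e alone of the 10 named calls remained; RLE scaling lost Psmb8 and Hes1, and a 1 CPM filter lost B2m, Pam, Psmb8, Hes1 and Plxna2. Directions reversed for Krt1 in 10x at 0.867 with at most 5% mitochondrial UMIs and for Aspn in bulk at -0.11 with the replicate block. With 1 library left out, log2 folds ran from -0.78 to 0.0092 for Acot1, -0.87 to 0.64 for Aspn, -0.34 to 0.23 for Bnip3, -0.13 to 1.03 for Cck, -0.58 to 0.044 for Krt24, -0.036 to 0.16 for Postn, -0.17 to 0.48 for Sgk1 and -2.54 to 0.023 for Tsc22d3. The cause was not tested. A lone library was assumed to vary like the other groups. Depth limits genes with few UMIs in bulge cells, and 1 library per age limits all 10x and ATAC-seq values.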
